A study of Homo sapiens with 8 samples.

Results

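A set of 10 inflammatory genes that tumour cells can switch on through the transcription factor NF-kB were followed in tumours of the human triple-negative breast cancer line MDA-MB-231: the chemokines CXCL1, CXCL2, CXCL3 and CXCL8, the cytokines CSF2, IL6, LIF, IL11 and IL1B, and PTGS2, which encodes the prostaglandin-forming enzyme COX-2. They were chosen by name, and 9 of the 10 have a row among the 13546 genes of the deposited count table. IL1B has no row and was not analysed here. Every gene in that table exceeds 1 CPM (counts scaled to library size) in at least 4 libraries, so a gene of low level could be missing from it.

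The cells were injected into nude mice, which lack a thymus and so most T cells but keep neutrophils, macrophages and other myeloid cells, and RNA was taken from the tumours that formed. In 4 tumours the injected cells had intact CDK4 (CDK4WT), and in the other 4 they were labelled CDK4 knockout (CDK4KO). CDK4 is the cyclin D-dependent kinase of the G1/S transition. How the gene was disrupted, whether the line was 1 clone, the age of the tumours and whether each tumour came from its own mouse are not stated in the labels. CDK4 mRNA lay between 107 and 116 CPM in CDK4WT and between 111 and 134 CPM in CDK4KO, so the mRNA level cannot serve as a check on the knockout.

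Resting NF-kB is held in the cytoplasm by inhibitor proteins of the IkB family. Signals from IL-1, TNF or Toll-like receptors destroy the inhibitor, and the freed dimers bind kappa B sites in promoters of cytokine genes. MDA-MB-231 is known for steady secretion of such cytokines. CXCL1, CXCL2, CXCL3 and CXCL8 attract neutrophils through the receptor CXCR2, and CSF2 (GM-CSF) drives growth and survival of granulocytes and macrophages. IL6, LIF and IL11 signal through the shared receptor chain gp130, and COX-2 starts the synthesis of prostaglandin E2.

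The upstream sequences of the 3 genes with the widest genotype differences are shown, with the kappa B matches of the remaining ones. Capitals mark matches to a fixed kappa B consensus near the start. Sites that depart from that consensus or lie farther upstream were not searched. RefSeq promoters (GRCh38.p14) were found for 9 of the 10 genes, all but LIF. The 250 bases before the RefSeq start were searched on both strands for the 10-letter kappa B consensus, with G or T allowed at its first base, and matches are in capitals. All sequences run 5′ to 3′ on the strand of the gene, and the longer ones end at or just before the start site.

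CSF2, plus strand, chr5:132073669-132073788: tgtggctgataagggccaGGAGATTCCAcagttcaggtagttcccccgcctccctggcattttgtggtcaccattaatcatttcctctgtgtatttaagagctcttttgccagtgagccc
CXCL1, plus strand, chr4:73869273-73869392: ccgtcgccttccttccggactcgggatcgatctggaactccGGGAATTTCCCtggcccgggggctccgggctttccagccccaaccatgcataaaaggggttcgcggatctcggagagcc
PTGS2, minus strand, chr1:186680428-186680543: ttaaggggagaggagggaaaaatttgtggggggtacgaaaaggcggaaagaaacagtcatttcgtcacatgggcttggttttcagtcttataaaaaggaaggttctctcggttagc
CXCL2, minus strand, chr4:74099254-74099283: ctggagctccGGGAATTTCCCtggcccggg
CXCL3, minus strand, chr4:74038749-74038778: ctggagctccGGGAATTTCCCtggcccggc
CXCL8, plus strand, chr4:73740467-73740496: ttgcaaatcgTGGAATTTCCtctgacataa
IL6, plus strand, chr7:22727117-22727146: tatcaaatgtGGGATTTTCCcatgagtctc

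A kappa B match stood in 6 of the 9 promoters, against 17.1% of the 27305 RefSeq promoters searched in the same way. The genes were listed as NF-kB driven, so this contrast was built into their choice and is no independent support. In CXCL1, CXCL2 and CXCL3 the same 11 letters (a match on each strand, overlapping) began 79, 78 and 79 bases before the start on the gene's strand, and CXCL3 had another match farther upstream, 163 bases before it. The matches of CXCL8, IL6 and CSF2 began 92, 73 and 102 bases before the start, that of CSF2 on the opposite strand. No match lay in the windows of PTGS2, IL11 or IL1B, which does not show that these promoters lack NF-kB sites. The AP-1 motif TGANTCA was found in CXCL8 and IL11 (6.6% of all promoters), and the box TATAAA, searched on the gene's strand, in CXCL8 and PTGS2 (7.17% of all promoters). These are matches of letters only, and no binding was measured.

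Libraries held 27841000 to 33618000 counts, and the 9 genes drew 54 to 3033 counts per library. CDK4KO replicates 1 and 4 lay farthest from their group, with a median absolute log2 difference from the mean of the other 3 libraries of 0.146 and 0.136, against 0.0660 to 0.114 in the remaining 6 libraries. The cell line's identity genes (VIM, CD44, EGFR, AXL, CAV1, KRT18, MSN and LGALS1) summed to 13720 to 16315 CPM in CDK4WT and 11916 to 16343 CPM in CDK4KO. VIM alone, at 7807 to 11510 CPM, made up most of each sum. Of 18 leukocyte markers 9 had a row, and they summed to 89.2 to 135 CPM in CDK4WT and 105 to 188 CPM in CDK4KO. LAPTM5 alone made up most of each sum (151 CPM in CDK4KO replicate 1), and the other 8 summed to 33.0 to 50.6 CPM in CDK4WT and 36.6 to 40.2 CPM in CDK4KO. CD68, ITGAM, S100A8, S100A9 and CSF3R were among the leukocyte markers without a row. Of 8 genes that the line lacks or holds at low level, ERBB2, EPCAM, KRT5 and GATA3 had a row (sums of 114 to 124 and 113 to 127 CPM). Most of each sum was ERBB2, at 95.4 to 109 CPM. For the fibroblast and pericyte markers (8 of 12 with a row) the sums were 819 to 1240 CPM and 716 to 1247 CPM. Endothelial markers (9 of 11 with a row, CDH5 and CLDN5 not among them) summed to 339 to 379 CPM in CDK4WT and 401 to 464 CPM in CDK4KO, without overlap. ROBO4 carried most of this difference (0.54 ± 0.10), and without it the sums overlapped, at 239 to 268 CPM and 250 to 276 CPM. ESAM was higher in every CDK4KO tumour (0.19 ± 0.06), and PECAM1 stood at 0.34 ± 0.13. Of the 9 endothelial markers 8 had a log2 fold change above 0, with a median of 0.13, and TIE1 alone was below (-0.19 ± 0.10). None passed in edgeR over all genes, and 3 were higher at an unadjusted p of 0.05, against 900 of all 13546 genes. The sums without LAPTM5 or ROBO4 were added after seeing the data. The part of host cells in the differences described here was not tested, and in bulk tumours fewer cells of a type and less RNA per cell cannot be told apart.

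CSF2, CXCL1 and PTGS2 were the genes whose CDK4KO tumours all lay below all CDK4WT tumours, with mean levels of 0.508, 0.528 and 0.467 times those in CDK4WT. The remaining 6 genes overlapped between the genotypes. Of the 9 genes 7 had a log2 fold change (CDK4KO minus CDK4WT) below 0, against 48.8% of all genes, and their median was -0.32, against 0.004 over all genes. The median was -0.17 without CDK4KO replicate 1 and -0.21 without CDK4WT replicate 4. With edgeR's quasi-likelihood test, adjusted over all genes with a threshold of 0.05, none passed, and of all genes 0.0591% did. At an unadjusted p of 0.05 the same 3 genes were lower, against 6.33% of all genes, and complete separation downwards was seen in 3.81% of all genes. DESeq2 called CSF2, CXCL1 and PTGS2 (adjusted p of 8.96e-06, 0.0114 and 0.00155; 2.33% of all genes called), as did limma voom with library quality weights (adjusted p of 0.0235, 0.0235 and 0.0292; 2.10% called). The genes were picked with earlier results of these data known, so these counts describe them and are no independent support. As separate mice are not named, a p-value here reflects library-to-library spread alone.

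**Figure D1:**
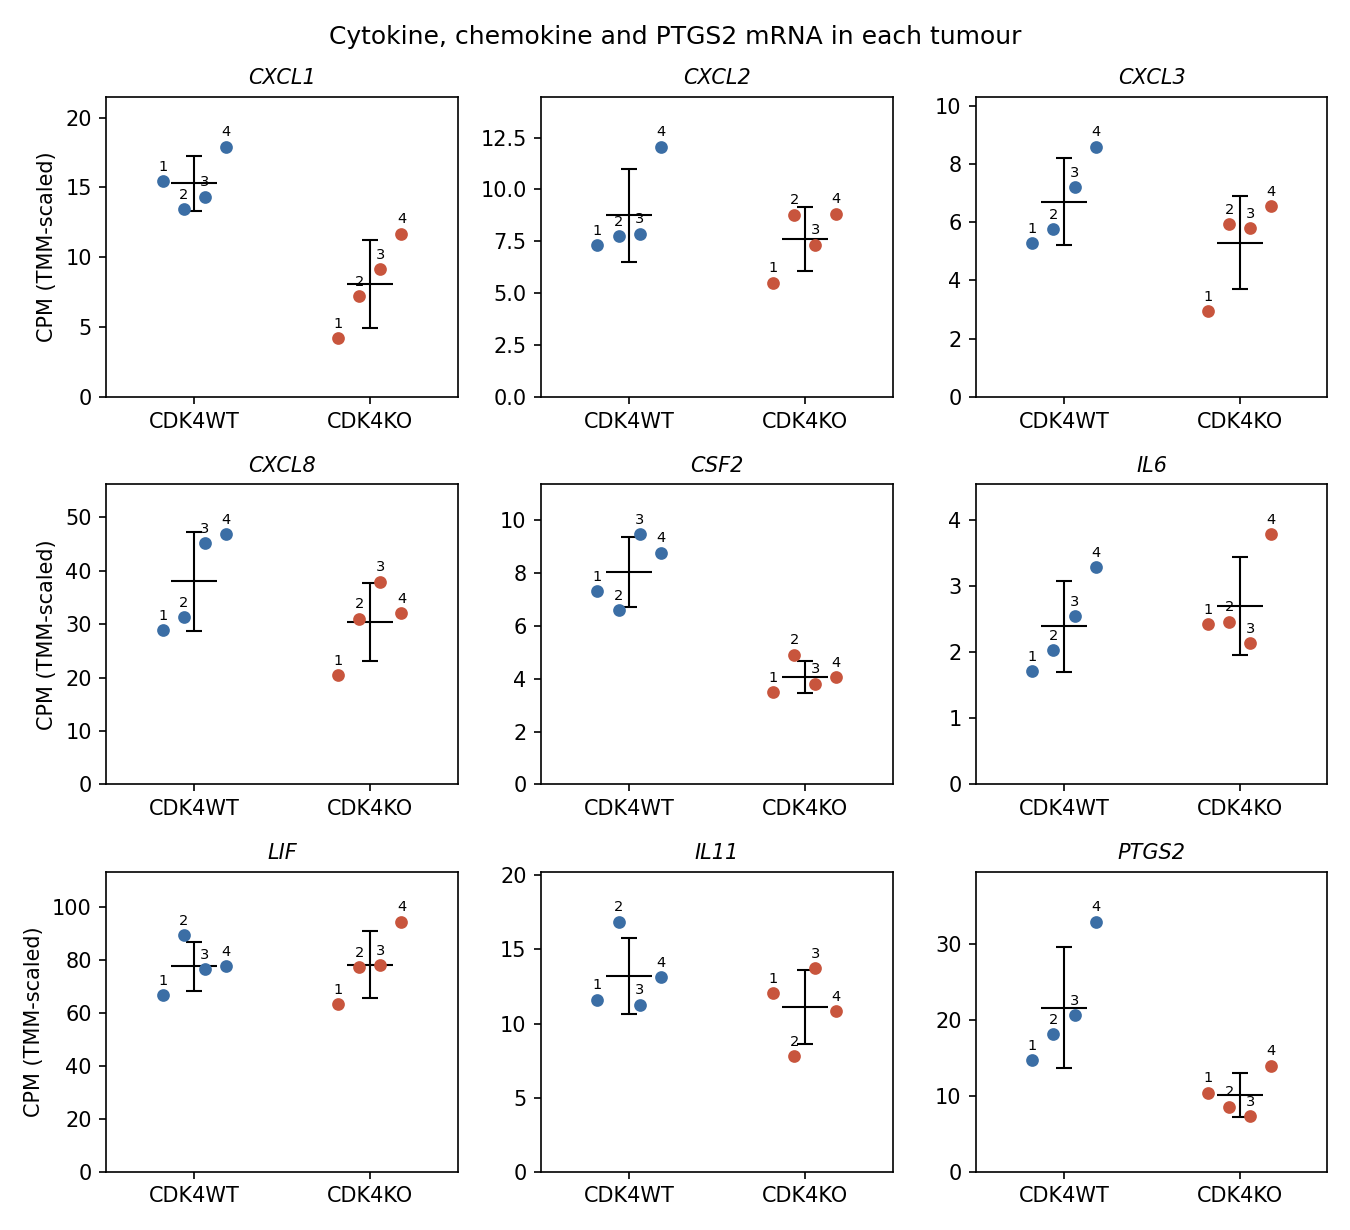
CPM (TMM-scaled, linear axis from 0) of the 9 genes in each of the 4 CDK4WT and 4 CDK4KO tumours. Points are tumours, numbers are replicates, and bars are the mean ± SD. The groups separate in CXCL1, CSF2 and PTGS2 and overlap in the other panels.

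Among the chemokines, CXCL1 separated the genotypes and its close relatives did not. CXCL1 (ENSG00000163739, hg38, chromosome 4, 73869393 to 73871242) stood at 15.5, 13.4, 14.3 and 17.9 CPM in CDK4WT replicates 1 to 4 and at 4.21, 7.22, 9.14 and 11.7 CPM in CDK4KO replicates 1 to 4. The highest CDK4KO tumour lay below the lowest CDK4WT tumour, and the CDK4KO tumours spread 2.78-fold from lowest to highest, against 1.34-fold in CDK4WT. The log2 fold change was -0.92 ± 0.25 (SE; 95% interval -1.49 to -0.36; edgeR adjusted p = 0.190). Without CDK4KO replicate 1 it was -0.71 (edgeR adjusted p = 0.0639), and -0.90 with both CDK4KO libraries 1 and 4 omitted (edgeR adjusted p = 0.0132), an alternative added once values were known. CDK4KO replicate 1, the lowest tumour for all 4 chemokines, held 151 CPM of LAPTM5, its highest level. Its other 8 leukocyte markers summed to 37.4 CPM, within the CDK4WT range, but single ones went both ways. In that tumour CD14 was at its highest (3.32 CPM) and CORO1A at its lowest (9.13 CPM).

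CXCL2 (ENSG00000081041, chromosome 4, 74097035 to 74099293) was at 7.30, 7.76, 7.86 and 12.1 CPM in CDK4WT and at 5.50, 8.79, 7.33 and 8.82 CPM in CDK4KO. Its groups overlapped, and its spread came mainly from a high CDK4WT replicate 4 and a low CDK4KO replicate 1. The log2 fold change was -0.20 ± 0.19 (95% interval -0.62 to 0.23). It was -0.0063 without CDK4WT replicate 4, -0.072 without CDK4KO replicate 1 and -0.033 with voom. CXCL3 (ENSG00000163734, chromosome 4, 74036589 to 74038807) was at 5.27, 5.75, 7.21 and 8.60 CPM in CDK4WT and at 2.94, 5.93, 5.79 and 6.55 CPM in CDK4KO. Here too CDK4KO replicate 1 was the lowest tumour and the other CDK4KO tumours lay within the CDK4WT range. Its log2 fold change was -0.33 ± 0.24 (95% interval -0.86 to 0.19), and -0.14 without CDK4KO replicate 1 or -0.20 without CDK4WT replicate 4.

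CXCL8, also called IL-8 (ENSG00000169429, chromosome 4, 73740506 to 73743716), has no counterpart gene in the mouse. It was at 28.9, 31.3, 45.1 and 46.8 CPM in CDK4WT and at 20.4, 31.0, 37.9 and 32.1 CPM in CDK4KO. Of the CDK4KO tumours 3 lay within the CDK4WT range and replicate 1 below it. The log2 fold change was -0.32 ± 0.21 (95% interval -0.80 to 0.16), and -0.17 without CDK4KO replicate 1 or -0.21 without CDK4WT replicate 4. The intervals of CXCL2, CXCL3 and CXCL8 all include both 0 and -0.62, so these data do not show that the 3 genes stayed even.

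Whether CXCL1 differed from its relatives was tested within tumours, a comparison chosen after the values were seen. The log2 level of CXCL1 minus that of CXCL2 averaged 0.82 ± 0.21 in the CDK4WT tumours against 0.01 ± 0.40 in the CDK4KO tumours (n = 4 each, SD; exact permutation test, two-sided p = 0.0286, adjusted p over the 6 chemokine pairs 0.0857). CXCL1 minus CXCL3 was 1.199 ± 0.25 and 0.57 ± 0.23 (SD, n = 4 each; exact permutation p = 0.0286, adjusted p = 0.0857). These 2 differences separated the genotypes completely, and 0.0286 is the smallest p that this exact permutation of 4 against 4 tumours can give. Neither passed after adjustment over the 6 pairs. CXCL1 minus CXCL8 overlapped between the genotypes (difference -0.68; exact permutation p = 0.0571, adjusted p = 0.114). The 3 pairs without CXCL1 had differences of -0.05 to 0.18 (exact permutation, adjusted p = 0.549 to 0.771).

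CXCL1, CXCL2 and CXCL3 share sequence, so some reads cannot be placed. Of all 50-base stretches of their transcripts, 4.81% of CXCL1, 12.5% of CXCL2 and 6.01% of CXCL3 recur in one of the other 2 genes, and no such stretch of CXCL8 recurs elsewhere. All annotated transcripts were used, and those of CXCL3 cover its introns too, so its share could be higher in the spliced mRNA alone. Counted as 1 feature, the 3 genes stood at 30.7 ± 5.33 CPM in CDK4WT against 20.97 ± 6.02 CPM in CDK4KO (n = 4 each, SD; log2 fold change -0.55 ± 0.21, edgeR adjusted p = 0.313). The 4 chemokine genes lie within 359 kb of chromosome 4. The 10 measured genes nearest to this cluster had log2 fold changes of -0.14 to 0.66 with a median of 0.09, and 7 were above 0. The growth factor genes EREG and AREG, which lie beside it, were at 0.66 ± 0.14 and 0.50 ± 0.10, opposite in sign to the chemokines (edgeR adjusted p = 0.113 and 0.102).

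**Figure D2:**
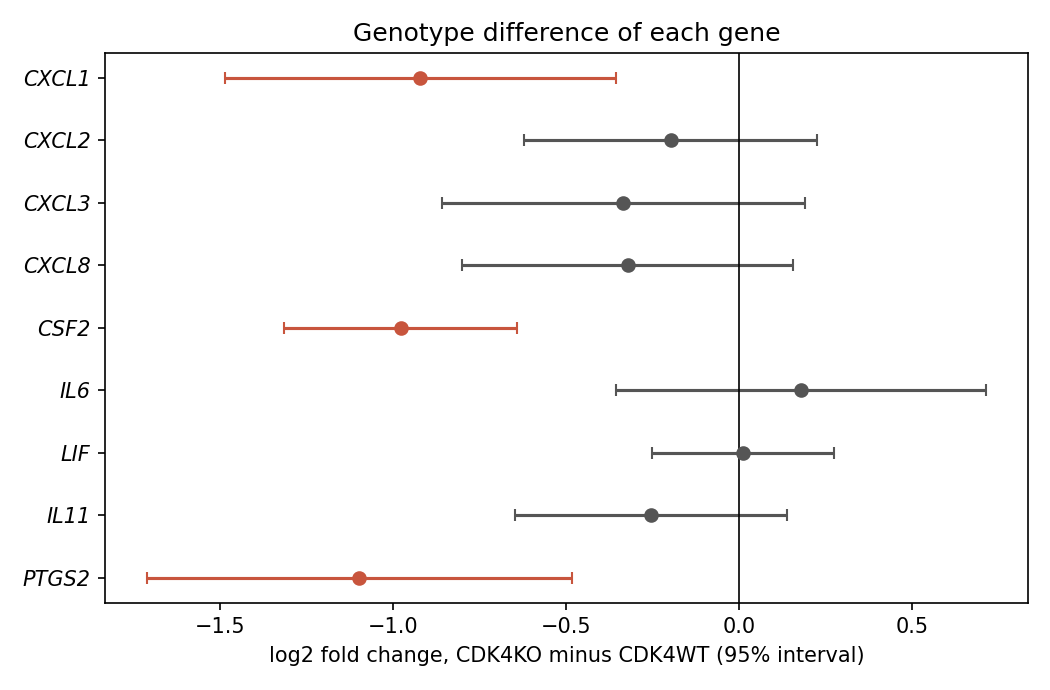
Log2 fold change, CDK4KO minus CDK4WT, of each gene with its 95% interval from the edgeR fit. Red marks the 3 genes whose tumours separate by genotype, whose intervals lie wholly below 0. The intervals of the other 6 genes include 0.

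CSF2 had the smallest standard error of the 3 separated genes. The gene (ENSG00000164400, chromosome 5, 132073790 to 132076170) stood at 7.30, 6.58, 9.47 and 8.77 CPM in CDK4WT and at 3.49, 4.90, 3.81 and 4.05 CPM in CDK4KO. All 4 CDK4KO tumours lay below the lowest CDK4WT tumour, and the coefficients of variation were 16.5% and 14.9%, where counting alone gives 7.36%. The log2 fold change was -0.98 ± 0.15 (95% interval -1.31 to -0.64; edgeR adjusted p = 0.0508), and the gene was the 11th of 13546 by p. Over all alternatives the log2 fold change stayed between -1.08 and -0.88, with adjusted p from 8.96e-06 to 0.215. It passed in edgeR without CDK4KO replicate 1 (adjusted p = 0.0287), and the adjusted p was highest without CDK4WT replicate 3 (edgeR adjusted p = 0.215).

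PTGS2 (ENSG00000073756, chromosome 1, 186671791 to 186680427) stood at 14.7, 18.2, 20.6 and 33.0 CPM in CDK4WT and at 10.4, 8.60, 7.33 and 14.0 CPM in CDK4KO. The groups did not overlap but came close, at 14.7 CPM in CDK4WT replicate 1 and 14.0 CPM in CDK4KO replicate 4. It varied most among the CDK4WT tumours, with a coefficient of variation of 36.7%. The log2 fold change was -1.10 ± 0.27 (95% interval -1.71 to -0.48; edgeR adjusted p = 0.166). It was -0.82 without CDK4WT replicate 4 and -1.30 without CDK4KO replicate 4.

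Among the gp130 cytokines, LIF, IL6 and IL11 overlapped between the genotypes. LIF (ENSG00000128342, chromosome 22, 30240447 to 30246851), known for keeping stem cells undifferentiated, was at 66.8, 89.5, 76.6 and 77.8 CPM in CDK4WT and at 63.3, 77.4, 78.1 and 94.6 CPM in CDK4KO. The ranges overlap widely, and the log2 fold change was 0.01 ± 0.12 (95% interval -0.25 to 0.28). IL6 (ENSG00000136244, chromosome 7, 22725884 to 22732002), an inducer of the acute-phase response, was at 1.71, 2.04, 2.55 and 3.29 CPM in CDK4WT and at 2.43, 2.47, 2.14 and 3.79 CPM in CDK4KO. Its log2 fold change was 0.18 ± 0.24 (95% interval -0.35 to 0.71), and -0.03 without CDK4KO replicate 4, its highest tumour. IL11 (ENSG00000095752, chromosome 19, 55364389 to 55370463), a regulator of platelet formation and bone turnover, was at 11.6, 16.9, 11.3 and 13.1 CPM in CDK4WT and at 12.04, 7.79, 13.7 and 10.8 CPM in CDK4KO. The groups overlapped, with a log2 fold change of -0.26 ± 0.18 (95% interval -0.65 to 0.14). It was -0.11 without CDK4WT replicate 2 and -0.12 without CDK4KO replicate 2. Exons of LIF and IL6 overlap annotated genes on the opposite strand by 267 and 474 bases, and no label gives the strand setting of the counting, so a part of these counts is uncertain.

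Per kilobase of exon, the levels kept nearly the same order in both genotypes. In CDK4WT, LIF was highest at 19.6 ± 2.34 CPM per kilobase (SD, n = 4), followed by CXCL8 at 16.7 ± 4.07, CXCL1 at 11.8 ± 1.5 and CSF2 at 10.2 ± 1.68. CXCL2 at 5.83 ± 1.48, IL11 at 4.95 ± 0.96, PTGS2 at 4.10 ± 1.51 and CXCL3 at 3.02 ± 0.68 formed a lower tier, and IL6 was last at 1.16 ± 0.33. Neighbours in this order overlapped in range, except that CSF2 lay wholly above CXCL2 and CXCL3 wholly above IL6. In CDK4KO the order was the same but for PTGS2 (1.92 ± 0.55), which stood below CXCL3 (2.39 ± 0.72). Exon length was the union over all annotated transcripts. For CXCL3 it was 2219 bases, the whole span of the gene, so introns of its spliced form counted as exon. This lowers its level per kilobase, and the place of CXCL3 in both orders, also relative to PTGS2, rests on that length.

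The tumours of 1 genotype also differed among themselves, and the genes did so partly together. For each gene the genotype mean was subtracted from its log2 CPM, and the deviations were correlated over the 8 tumours. Of 36 gene pairs 29 had a positive Pearson r, with a median of 0.48 and a range of -0.78 to 0.96. The same was not computed for pairs of other genes, so these values cannot be called a trait of the 9 genes. With the replicate block, which also subtracts the mean of same-numbered tumours, the median turned to -0.25, so the direction depends on leaving replicate numbers out. The labels do not pair same-numbered tumours. After both subtractions such tumours are mirror images of each other, so fewer separate values remain. Averaged over the 9 genes, CDK4WT replicate 4 and CDK4KO replicate 4 were the high tumours of their genotypes (0.31 and 0.29 above the mean), and CDK4WT replicate 1 and CDK4KO replicate 1 the low ones (0.26 and 0.33 below it). IL11 had a negative r to 7 of the other 8 genes, at -0.78 with CSF2 and between -0.28 and -0.02 with the rest. Its r with CXCL1 and CXCL8 was above 0 without CDK4KO replicate 1 (0.26 and 0.06).

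**Figure D3:**
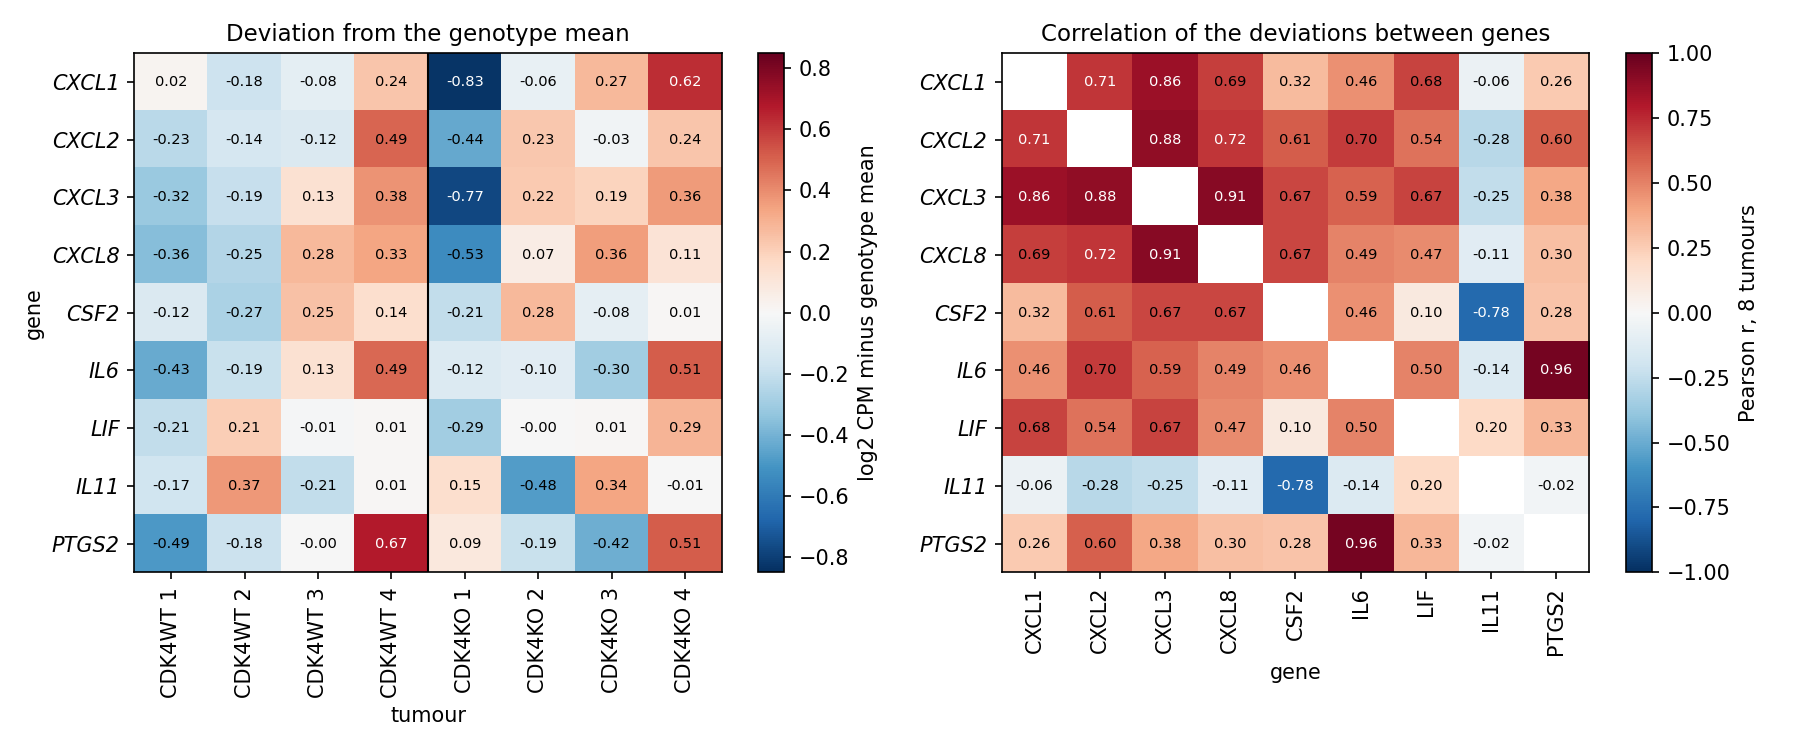
Left, deviation of each gene's log2 CPM from its genotype mean in each of the 8 tumours. Right, Pearson r of these deviations for the 36 gene pairs. The CXC chemokines have r from 0.69 to 0.91 (CXCL1 with the other 3 from 0.28 to 0.48 without CDK4KO replicate 1), IL6 and PTGS2 have r = 0.96, and CSF2 and IL11 r = -0.78.

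PTGS2 and IL6 deviated most closely together, with r = 0.956 (exact permutation p = 0.00347 within genotypes) and Spearman's rho = 0.857 (exact permutation p = 0.0208). Without the 2 tumours farthest from the median r was 0.827. CXCL2 and CXCL3 had r = 0.884 and rho = 1 (exact permutation p = 0.00174 for both, the smallest these arrangements give), and r = 0.840 without the 2 farthest tumours. CXCL3 and CXCL8 had r = 0.906 (exact permutation p = 0.0191) with rho = 0.738 (exact permutation p = 0.0694), and r = 0.716 without the 2 farthest.

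The correlation of CXCL1 with CXCL2 and CXCL3 was weaker without CDK4KO replicate 1 alone (r = 0.424 and 0.480), as was that with CXCL8 (0.694 with all tumours and 0.282 without it). With CXCL3 it was 0.857 (exact permutation p = 0.0226; rho = 0.714, exact permutation p = 0.0625) and 0.529 without CDK4KO replicates 1 and 4, and with CXCL2 0.714 (exact permutation p = 0.0365; rho = 0.714, exact permutation p = 0.0625) and 0.466. CSF2 and IL11 were opposed, with r = -0.779 (exact permutation p = 0.0382), rho = -0.786 (exact permutation p = 0.0503) and r = -0.477 without CDK4WT replicate 3 and CDK4KO replicate 2. CSF2 and PTGS2, which both separated the genotypes, had r = 0.284 within them (exact permutation p = 0.531; rho = 0.167, exact permutation p = 0.722; r = 0.668 without the 2 farthest). Of the 36 pairs computed, 6 had an unadjusted two-sided p under 0.05 by r and 2 by rho, and none passed after Benjamini-Hochberg adjustment over the 36 (lowest adjusted exact permutation p = 0.0625 for r and for rho). All genes of 1 tumour share its library and depth.

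Over 11432 genes with an average log2 CPM of at least 2, those most like the mean deviation of the 9 genes were RAPGEF3 (a cAMP-activated exchange factor, r = 0.982), DRAM1 (a lysosomal membrane protein of autophagy, 0.980), RARG (a retinoic acid receptor, 0.976), WDR74 (0.970) and CTSL (the lysosomal protease cathepsin L, 0.969). Those most opposed were GLI3 (a Hedgehog pathway transcription factor, -0.984), ZBTB24 (-0.983), GPR17 (-0.977), HSCB (an iron-sulphur cluster co-chaperone, -0.974) and RBBP7 (a histone-binding protein, -0.973). The highest and lowest of so many correlations over 8 libraries are a description of these tumours. Likeness here is within genotypes and leaves out the genotype difference. The log2 fold changes were 0.39 ± 0.08 for RAPGEF3, 0.12 ± 0.10 for DRAM1 and 0.66 ± 0.16 for RARG. WDR74 was at -0.02 ± 0.07 and CTSL at 0.25 ± 0.10. Without CDK4KO replicate 1 the 10 values lay between 0.961 and 0.986 or between -0.977 and -0.955. The genes were picked on the same tumours, so these values are no separate check.

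The machinery of NF-kB itself was close to even. Of 13 subunits and activating kinases 7 were below 0 and 6 above, with a median log2 fold change of -0.004, and none passed, adjusted or at an unadjusted p of 0.05. RELA, the main activating subunit, averaged 147 ± 9.49 CPM in CDK4WT tumours against 157 ± 5.997 CPM in the knockouts (n = 4 each, SD; log2 fold change 0.10 ± 0.06). NFKB2 and RELB, which form the dimer of the alternative pathway, were at -0.14 ± 0.10 and -0.12 ± 0.12.

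Inhibitors and feedback targets of NF-kB moved in both directions. Of 20 genes 13 were below 0, the median was -0.08, none passed over all genes, and 3 were lower and 3 higher at an unadjusted p of 0.05. NFKBIZ, a nuclear co-factor needed for IL6 induction, was at 72.9, 70.1, 75.5 and 97.1 CPM in CDK4WT and 60.4, 61.1, 56.8 and 64.0 CPM in CDK4KO. The groups did not overlap (-0.38 ± 0.10, edgeR adjusted p = 0.161). TNFAIP2 was at -0.30 ± 0.11, and BCL2A1, a survival factor of the BCL2 family, at 0.81 ± 0.28 with groups that did not overlap and levels of 1.40 to 5.64 CPM.

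Other secreted factors did not share one direction. Of 15 measured genes (of 31 listed) 9 were below 0, with a median of -0.11, none past the test and 2 higher at an unadjusted p of 0.05. TNFSF15, a TNF family cytokine, was at 141, 171, 176 and 107 CPM in CDK4WT and 202, 233, 177 and 236 CPM in CDK4KO. Its groups just failed to overlap, in the direction opposite to CSF2 (0.51 ± 0.16, edgeR adjusted p = 0.225). CLCF1, a gp130 cytokine, and CCL28, a mucosal chemokine, were at 0.26 ± 0.09 and -0.39 ± 0.19.

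Among 18 receptors of the encoded ligands 11 were measured. CXCR1 and CXCR2, the receptors of the chemokines, and CSF2RB, the signalling chain for GM-CSF, were not among them. Of the 11 receptors 4 were below 0 and 7 above (median 0.09), none passed, and 2 were higher at an unadjusted p of 0.05. IL6ST, the gp130 chain, stood at 233 CPM ± 16.6 and 276 CPM ± 42.8 (0.24 ± 0.11), LIFR, the LIF receptor, at 0.22 ± 0.10 and IL1R1, the IL-1 receptor, at 0.43 ± 0.19 on a low level of 1.76 CPM in CDK4WT.

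Upstream of NF-kB, 18 of 19 genes of IL-1 and Toll-like receptor signalling were measured, with 13 above 0, a median of 0.05, none past the test and, unadjusted, 1 lower and 3 higher. TLR4, the receptor for bacterial lipopolysaccharide, was at 41.9, 42.8, 43.1 and 35.6 CPM in CDK4WT and 58.8, 54.2, 49.1 and 52.7 CPM in CDK4KO. All CDK4KO tumours lay above all CDK4WT tumours (0.39 ± 0.08, edgeR adjusted p = 0.0997). The kinases IRAK2 and IRAK3, of which IRAK3 restrains the pathway, also separated, at -0.31 ± 0.11 and 0.27 ± 0.10 in opposite directions.

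Around COX-2, 11 of 16 genes of prostaglandin synthesis and removal were measured, 5 below 0 and 6 above (median 0.04), with none past the test and, unadjusted, 2 lower and 2 higher. PLA2G4A, the phospholipase that frees arachidonic acid for COX-2, stood at 3.08, 2.95, 2.33 and 2.63 CPM in CDK4WT and 2.12, 1.87, 1.55 and 1.85 CPM in CDK4KO. It lay lower in every CDK4KO tumour (-0.58 ± 0.16, edgeR adjusted p = 0.190). TBXAS1, which converts the COX product to thromboxane, had the opposite sign and did not overlap, at 9.81 to 14.2 CPM in CDK4WT and 14.7 to 23.5 CPM in CDK4KO (0.70 ± 0.16, edgeR adjusted p = 0.126). PLA2G4C, another phospholipase, was at 0.57 ± 0.21. PTGS1, which encodes COX-1, had no row and was not analysed here.

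Factors listed for the decay or stability of mRNAs, through AU-rich elements or otherwise, were all measured. Of these, 8 were below 0 and 9 above (17 genes, median 0.01, none past the test, and unadjusted 2 lower and 1 higher). MAPKAPK3, a kinase downstream of p38, was at 0.26 ± 0.07, HNRNPD, the decay factor AUF1, at -0.20 ± 0.06 with groups that did not overlap, and ZC3H12A, the nuclease regnase-1, at -0.25 ± 0.10. In the C/EBP and STAT3 list 6 of 11 were below 0 (median -0.01, none past the test; unadjusted, 1 lower). CEBPA stood at 7.998 CPM ± 1.98 and 5.17 CPM ± 0.52 (-0.63 ± 0.17), CEBPG at 0.20 ± 0.14 and CEBPD at -0.29 ± 0.22.

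**Figure D4:**
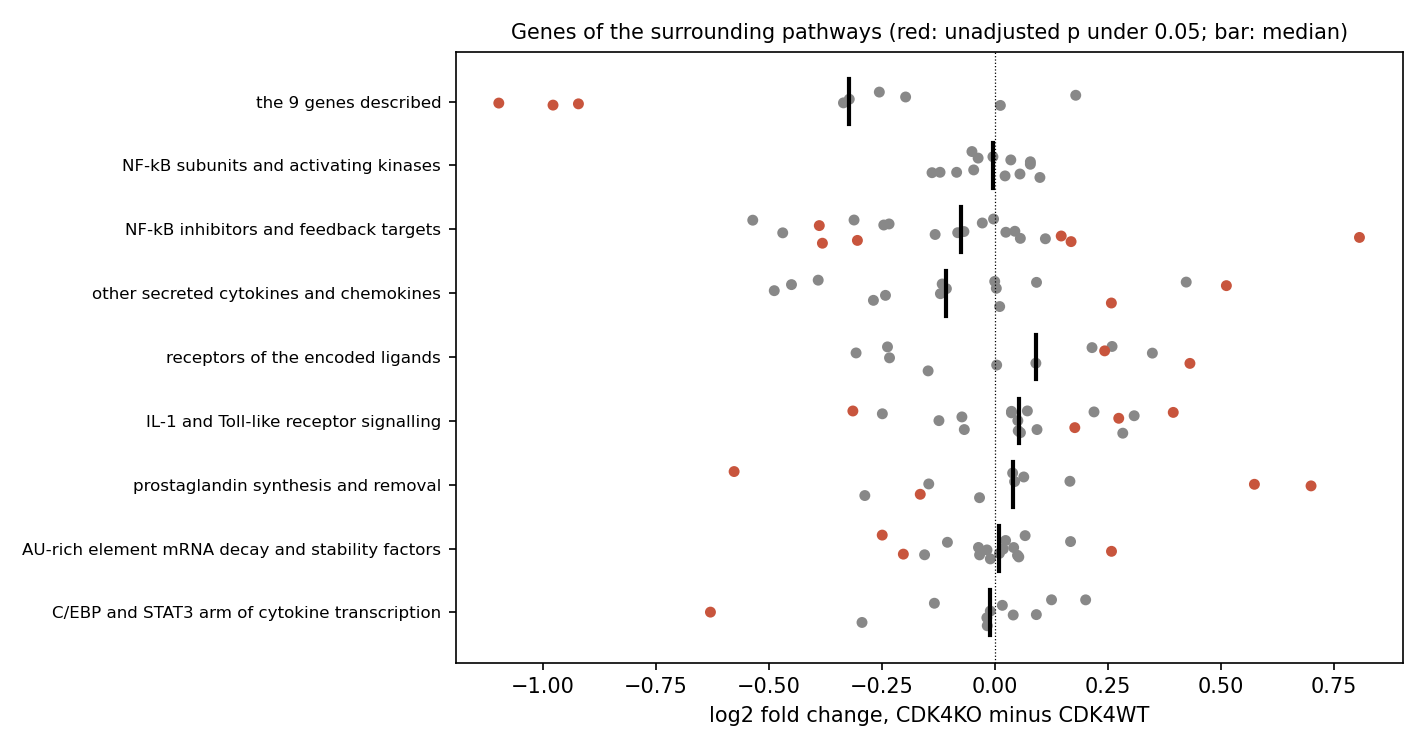
Log2 fold change, CDK4KO minus CDK4WT, of every measured gene of the 9 lists, 1 point a gene, with the list median as a bar. Red points have an unadjusted edgeR p under 0.05, and none of them passed after adjustment over all genes. The median of the 9 genes described here is -0.32, and the other medians lie between -0.11 and 0.09.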

How the data were processed

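RNA of 8 tumours, 4 CDK4WT and 4 CDK4KO, served for mRNA library preparation. Raw counts per Ensembl gene, with no normalization, are what the authors deposited. The submitters' processing notes name cutadapt, STAR 2.7.11a, featureCounts 2.0.4, DESeq2 1.46.0 and hg38. For annotation release, strand setting and the handling of reads from mouse cells, the answer is not given in the sources used here. CDK4KO columns were matched to replicates 1 to 4 through the library names.

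Symbols were found for 13524 of 13546 identifiers. Coordinates and exon lengths come from GENCODE 29 (hg38). Genotypes were compared with edgeR 4.0.16 in R 4.3.3 (TMM, filterByExpr, which removed 0 genes, robust quasi-likelihood test, Benjamini-Hochberg over all genes, threshold 0.05). SE are those implied by the F statistic, and log2 CPM used a prior count of 2. The steps were tested on simulated data. Alternatives were DESeq2 1.42.0, limma 3.58.1 voom, other normalizations and low-count filters, non-robust estimation, the replicate block and each library left out. Pairs of genes were correlated after subtracting genotype means, with exact permutation within genotypes. Genes and lists were chosen with earlier results of these data known. Named genes are all measured members, the 3 with the smallest p of each list, and the 5 genes most and 5 least correlated with the members; the neighbours EREG and AREG and the genes of the last part were named after their values were seen.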

Additional observations from a re-analysis of the deposited data

Results flagged for a closer look

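In 18 groups of 4 tumours (9 genes in 2 genotypes), 2 held a tumour far from the other 3 by Dixon's ratio, where chance flags about 1 in 20. CXCL2 was highest in CDK4WT replicate 4, and its gap to the next tumour was 0.855 of the range of log2 CPM. CXCL3 was lowest in CDK4KO replicate 1, with a gap of 0.845 of the range.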

How the results depend on the processing

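Of the 9 genes, none changed sign under any alternative except IL6 and LIF: without CDK4KO replicate 4 they stood at -0.027 and -0.091, LIF at -0.05 without CDK4WT replicate 1, and IL6 at -0.051 without CDK4KO libraries 1 and 4 (chosen after seeing the data). With 1 library left out IL6 ranged from -0.027 to 0.37 and LIF from -0.091 to 0.10. A minimum of 3 CPM removed IL6, which then had no value. Of the 9 genes, edgeR called 1 with library size only as the scaling (14 of all genes), DESeq2 and voom each 3 (315 and 285 of all genes), and edgeR 2 without CDK4KO libraries 1 and 4 (447 of all genes), against 0 (8 of all genes). With 1 library left out, 0 to 1 of the 9 passed and 0 to 183 of all genes, the higher values both without CDK4KO replicate 1; where none of all genes passed, without CDK4WT replicate 4 or CDK4KO replicate 2, 1582 and 1688 had an unadjusted p under 0.05. With the replicate block 0 of the 9 and 13 of all genes passed. Same-numbered tumours are not paired by the labels, and their deviations correlated at -0.03, -0.01, 0.003 and 0.19, and not every tumour correlated best with its own number. Median pair correlations were 0.36 to 0.58 with 1 library left out (0.48 with all) and -0.25 when replicate means were also subtracted as a block, and the cause was not tested. The count of 3 separated genes was the same under the scalings and prior count tried; leaving a library out cannot undo a separation. IL6, at 54 to 117 counts, is the gene where counting adds most error (11.3%).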

Other observations

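Further genes of the NF-kB inhibitor and feedback list, named after their values were seen, stood on both sides of 0, and none passed. BIRC2 and OTULIN were at 0.17 ± 0.07 and 0.15 ± 0.06 (log2 fold change ± SE), both past an unadjusted threshold of 0.05 in edgeR. The genes that follow lay below 0 and overlapped between the genotypes, and of these TNFAIP3 alone passed that unadjusted threshold. BIRC3, an inhibitor of apoptosis, was at 72.2, 67.8, 97.2 and 82.4 CPM in CDK4WT and 29.5, 57.7, 64.9 and 68.1 CPM in CDK4KO (log2 fold change -0.54 ± 0.24, SE). Its lowest tumour, CDK4KO replicate 1, is also the lowest for the 4 chemokines. ICAM1, the leukocyte adhesion molecule, was at -0.47 ± 0.23, NFKBIA, the inhibitor IkB-alpha, at -0.23 ± 0.12 and TNFAIP3, the deubiquitinase A20, at -0.39 ± 0.15. TNFAIP3 ranged from 27.9 to 48.7 CPM in CDK4WT and only from 27.5 to 30.1 CPM in CDK4KO.

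CSF3, which encodes the neutrophil growth factor G-CSF, was at 15.8, 14.3, 15.1 and 21.1 CPM in CDK4WT and at 9.44, 9.42, 21.6 and 48.5 CPM in CDK4KO. Of the CDK4KO tumours 2 lay below and 2 above every CDK4WT tumour, so its mean difference (0.42 ± 0.51) says little. Its highest tumour, CDK4KO replicate 4, was also the highest CDK4KO tumour for CXCL1, CXCL2, CXCL3, IL6, LIF and PTGS2. It was not the highest for CSF2, CXCL8 or IL11.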
